A study of Homo sapiens with 10 samples.

Results

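Di-n-propyl phthalate, the usual meaning of the short form DProP, was compared with its solvent in differentiating human neurospheres. The labels give only the short form. Of the 10 libraries of the series, 4 enter this comparison: 2 from neurospheres given DProP at 100 µM and 2 from vehicle controls given DMSO at 0.1%. All came from ReNcell VM, an immortal human line of neural progenitors, and each library pooled 6 neurospheres. The neurospheres were kept on laminin in N-2 medium for 6 days of differentiation, and compound and medium were renewed during that time. Every gene of the deposited count table was considered: 46427 genes were listed, 17765 had no count in any library, and 19465 passed the filter on low counts and were tested. The remaining 6 libraries, 2 each from neurospheres given diethyl phthalate (DEP), DPP or a mixture called Mix at the same labelled dose of 100 µM, entered the fit to estimate the spread. DEP and DPP are also set beside DProP at the end. DEP carries ethyl where di-n-propyl phthalate carries n-propyl ester chains. The labels do not spell out DPP or give the make-up of Mix. The series concerns developmental neurotoxicity of short-chain dialkyl phthalates, and this comparison asks which transcripts differed after exposure to DProP. A single line with pooled neurospheres stands for no range of donors. Nothing in the labels tells whether both libraries of 1 group came from separate cultures, and the p-values then measure the spread between these libraries, which may be technical.

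Some background helps in reading the gene groups. Cells of the brain make their own cholesterol, because lipoproteins do not cross from the blood. The transcription factor SREBF2 (SREBP2) is held in the endoplasmic reticulum when sterols are plentiful and activates genes of synthesis and uptake when they are scarce, together with the CCAAT-binding factor NFY. Liver X receptors, which sense oxysterols, activate the genes of cholesterol export. Neural progenitors express SOX and Notch pathway genes and leave the cell cycle as proneural factors of the NEUROG and NEUROD families start neuronal differentiation, while astrocyte precursors switch on NFI factors, GFAP and glutamate uptake.

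The libraries held 69697714 and 60695361 counts for vehicle and 57222381 and 70845673 for DProP. The vehicle libraries stood apart from the rest in RNA classes. They had counts for 21603 and 21500 genes, against 23221 and 23646 in the DProP libraries. Mitochondrially encoded genes took 0.0255% and 0.0343% of vehicle counts and 0.0901% and 0.0917% of DProP counts. Fold changes also fell with GC content (Spearman's rho -0.318 over 14822 protein-coding genes, a description across genes). Of 1875 long noncoding RNAs tested, 525 (28%) were higher and 25 (1.33%) lower with DProP. DProP and these differences in RNA classes cannot be told apart, since 1 vehicle group serves the comparison. The labelled cell type was checked against its markers. Summed over 6 neural progenitor markers, expression was 6780 to 6830 CPM (counts relative to the TMM-scaled library size) with vehicle and 3930 to 4110 CPM with DProP. Sums over 6 markers each went from 1930 to 2000 down to 1120 to 1180 CPM for neurons and from 5690 to 5930 down to 3070 CPM for astrocytes. Of these markers 6 of 6, 6 of 6 and 4 of 6 fell by the test described next, which 17.5% of all genes did. Summed markers of 6 genes each were 922 to 924 CPM with vehicle and 423 to 456 with DProP for oligodendrocytes, 929 to 930 and 428 to 461 CPM for neural crest or Schwann cells, which share 2 genes with that list, and 257 to 266 and 171 to 179 CPM for ependymal cells, of which 1, 2 and 5 genes fell. AIF1, PTPRC and ITGAM of microglia, PECAM1 of endothelium, SOX10 of oligodendrocytes and the neural crest and DCN of fibroblasts had no count in these 4 libraries. Summed microglial markers stood at 6.1 to 7.24 CPM with vehicle and 7.59 to 7.87 with DProP, endothelial markers at 47.5 to 51.5 and 12.2 to 14.5 CPM, mostly through CLDN5, and smooth muscle or pericyte markers at 157 to 158 and 90.7 to 97.3 CPM. The part of these cell markers in the results below was not tested. In such bulk samples fewer cells of a type and less RNA per cell cannot be told apart.

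DProP and vehicle differed at 6266 of the 19465 genes tested (32.2%) at an adjusted p under 0.05. Of these, 2864 (14.7%) were higher and 3402 (17.5%) lower with DProP. Library totals alone as the scale, in place of TMM factors, gave 5850 higher and 1699 lower, and moved the log2 fold changes up by 0.18. The directions below are therefore relative to the middle of all genes, whose median log2 fold change was 0.02. At least 2-fold changes that passed the test numbered 976 higher (5.01%) and 409 lower (2.1%). Among the 14905 protein-coding genes, 1986 (13.3%) were higher and 3217 (21.6%) lower, with a median of -0.04. Both DProP libraries lay above both vehicle libraries for 6698 genes (34.4%) and below both for 6309 (32.4%). Leaving out any 1 of the 4 libraries left 1643 to 2073 genes higher and 2333 to 2925 lower. The fewest higher genes were left without DProP 2, and without DProP 1 or vehicle 2 there were 1839 and 1900. Without vehicle 2, DProP 1 or DProP 2 the lower genes were 2418, 2352 and 2333. In what follows, 35 gene lists with 1080 genes are described by how many of their tested members passed the test and by their median log2 fold change. A number in parentheses after a gene is its log2 fold change. Beside many lists the higher and lower counts under library totals alone are added ("on library totals"), since that scale moves the balance of calls. The shares to set beside each count are 14.7% of all genes higher and 17.5% lower.

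**Figure D1:**
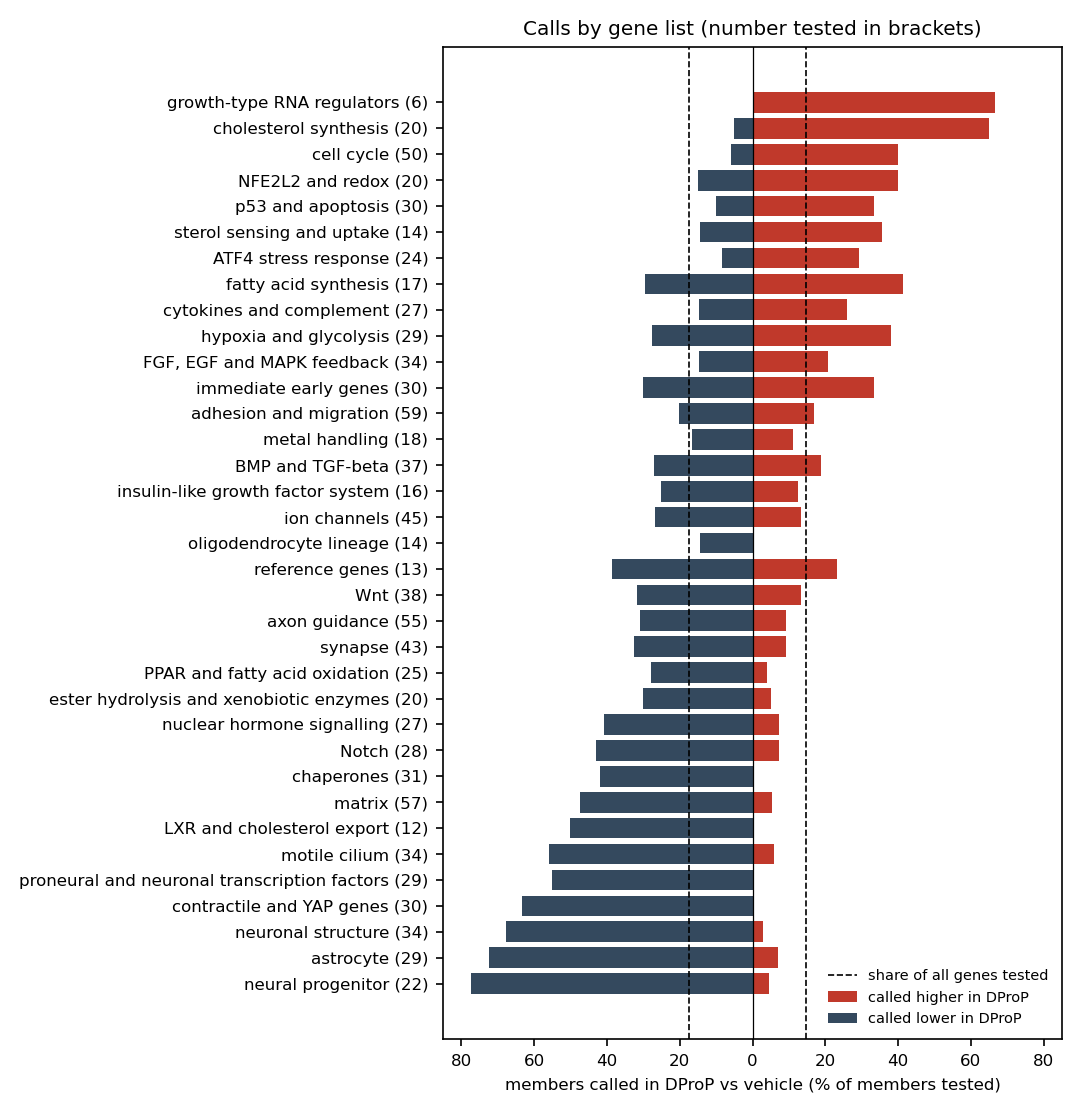
Share of the tested members of each gene list that were higher (right) or lower (left) with DProP than with vehicle at an adjusted p under 0.05, in percent. Dashed lines mark the shares of all 19465 genes, 14.7% higher and 17.5% lower. On the TMM scale plotted, cholesterol synthesis has the largest higher share of these lists after the small growth RNA list, and the progenitor, astrocyte and neuronal structure lists have large lower shares.

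The promoters of 4 sterol genes and of 3 genes met later are printed first, to show what they share. They come from RefSeq on GRCh38.p14 and run 5′ to 3′ over the 250 bases before the start of the gene, in lower case, from the first window listed for each gene. Capitals mark a CCAAT box on either strand (CCAAT or ATTGG) in the first 4. HMGCS1 and INSIG1 lie at chr5:43313413-43313662, minus strand, and chr7:155297628-155297877, plus strand. MSMO1 lies at chr4:165327419-165327668, plus strand, and DHCR7 at chr11:71448394-71448643, minus strand.
HMGCS1: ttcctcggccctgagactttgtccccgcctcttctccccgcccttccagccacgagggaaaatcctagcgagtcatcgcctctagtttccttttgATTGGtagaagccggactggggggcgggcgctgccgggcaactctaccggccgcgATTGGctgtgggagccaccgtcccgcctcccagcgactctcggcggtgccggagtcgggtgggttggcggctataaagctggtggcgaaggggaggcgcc
MSMO1: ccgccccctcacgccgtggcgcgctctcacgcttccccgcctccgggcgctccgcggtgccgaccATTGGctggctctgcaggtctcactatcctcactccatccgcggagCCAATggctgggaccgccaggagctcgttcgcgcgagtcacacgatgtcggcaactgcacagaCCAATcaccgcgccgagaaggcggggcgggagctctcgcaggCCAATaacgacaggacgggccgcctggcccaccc
DHCR7: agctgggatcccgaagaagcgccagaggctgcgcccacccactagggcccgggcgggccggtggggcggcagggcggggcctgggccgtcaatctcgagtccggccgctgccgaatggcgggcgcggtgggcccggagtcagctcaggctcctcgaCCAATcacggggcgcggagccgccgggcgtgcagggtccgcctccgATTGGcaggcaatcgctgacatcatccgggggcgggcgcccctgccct
INSIG1: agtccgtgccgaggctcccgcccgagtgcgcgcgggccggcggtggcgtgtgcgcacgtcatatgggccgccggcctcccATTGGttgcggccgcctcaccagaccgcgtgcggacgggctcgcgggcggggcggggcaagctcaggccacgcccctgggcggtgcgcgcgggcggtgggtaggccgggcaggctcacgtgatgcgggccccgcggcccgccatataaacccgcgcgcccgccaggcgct
MSMO1 had 4 such matches, HMGCS1 and DHCR7 2 each, and INSIG1 1, at 170 bases before its start. In the window from 250 bases before to 50 after the start, a CCAAT box was found in 12 of the 15 cholesterol synthesis genes with an entry (80%) and in 9747 of 27305 promoters (35.7%). PMVK, IDI1 and CYP51A1 were without one. IDI1 rose with DProP all the same, while MVK, TM7SF2, EBP and SC5D had a box and did not pass the test, as given below. A link between the box and the changes was not tested. The box was not particular to that list: it was in 64.3% of contractile, 60% of ATF4 and 56.2% of fatty acid synthesis promoters. Sterol sensing and uptake had it in 45.5%, LXR and export in 40% and immediate early genes in 39.1%. The classical sterol response element, searched as TCACNCCAC on both strands, was in 313 promoters (1.15%), in none of the 15 cholesterol synthesis promoters and in that of SREBF2. These are matches of letters in a fixed window and no measure of binding.
In ASNS (chr7:97872409-97872658, minus strand) capitals mark TGATGAAA, a match to the C/EBP-ATF response element TGATGNAA. This motif, searched on both strands, was in 1003 promoters (3.67%) and in 4 of 20 of the ATF4 list (20%): ASNS, CHAC1, SLC3A2 and CARS1. In EGR1 (chr5:138465229-138465478, plus strand) and CNN2 (chr19:1026358-1026607, plus strand) capitals mark CArG boxes, the motif of serum response factor, searched on both strands and found in 351 promoters (1.29%), in 4 of 14 contractile genes (28.6%), namely ACTG2, CNN2, TPM4 and MYLK, and in 2 of 23 immediate early genes (8.7%), EGR1 and SRF. EGR1 rose and CNN2, a calponin, fell with DProP, as given below.
ASNS: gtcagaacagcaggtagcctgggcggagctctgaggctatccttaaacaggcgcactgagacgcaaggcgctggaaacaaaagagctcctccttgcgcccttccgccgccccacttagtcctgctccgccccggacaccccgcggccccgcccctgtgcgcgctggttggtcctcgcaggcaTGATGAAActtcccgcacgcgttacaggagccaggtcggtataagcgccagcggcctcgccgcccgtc
EGR1: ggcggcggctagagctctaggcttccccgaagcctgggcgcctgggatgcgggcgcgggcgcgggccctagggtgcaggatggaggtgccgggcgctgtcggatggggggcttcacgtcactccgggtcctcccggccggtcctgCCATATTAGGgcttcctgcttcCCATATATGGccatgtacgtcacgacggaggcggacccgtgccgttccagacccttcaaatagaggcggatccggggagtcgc
CNN2: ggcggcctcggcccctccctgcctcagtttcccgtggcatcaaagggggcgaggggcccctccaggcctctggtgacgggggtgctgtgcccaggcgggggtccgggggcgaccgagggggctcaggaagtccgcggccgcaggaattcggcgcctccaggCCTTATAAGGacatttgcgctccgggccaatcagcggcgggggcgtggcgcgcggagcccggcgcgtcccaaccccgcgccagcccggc

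Genes of cholesterol synthesis were mostly higher with DProP. Of 20 tested, 13 rose, 1 fell and 6 did not pass the test, with a median log2 fold change of 0.43 against 0.02 for all genes. ACAT2 makes the acetoacetyl-CoA that enters the pathway. It was at 34 and 34.8 CPM with vehicle and 64.2 and 77.8 CPM with DProP (log2 fold change 1.05, SE 0.11, adjusted p = 4.91e-05). HMGCS1, the next enzyme, was at 417 and 375 CPM with vehicle and 507 and 547 CPM with DProP (log2 fold change 0.41, SE 0.07, adjusted p = 0.00116). For both genes each DProP library was above both vehicle libraries, as for 34.4% of all genes tested. Among the later mevalonate enzymes, MVD (0.52), IDI1 (0.55) and FDPS (0.74) also rose. PMVK, the phosphomevalonate kinase just before MVD, went the other way, at 42.1 and 47.5 CPM with vehicle and 30.3 and 31.1 CPM with DProP (log2 fold change -0.55, SE 0.08, adjusted p = 0.000358). In the sterol branch DHCR7, which makes cholesterol from 7-dehydrocholesterol, was at 102 and 115 CPM with vehicle and 179 and 190 CPM with DProP (log2 fold change 0.76, SE 0.08, adjusted p = 5.31e-05). The demethylation enzymes MSMO1 (0.43) and HSD17B7 (0.73) rose. In contrast, the test was not passed by squalene epoxidase SQLE (log2 fold change 0.02, adjusted p = 0.842), by CYP51A1 (0.04), SC5D (0), EBP (0.06) and TM7SF2 (0.18), or by the mevalonate kinase MVK (0.3, adjusted p = 0.081).

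Sensors and uptake genes moved unevenly. Of 14 genes of sterol sensing and uptake, 5 rose and 2 fell (median 0.18; 8 and 1 on library totals). INSIG1, which retains the SREBP complex and is itself an SREBP target, was at 82.3 and 86.1 CPM with vehicle and 141 and 148 CPM with DProP (log2 fold change 0.78, SE 0.06, adjusted p = 5.55e-06). STARD4, a cytosolic sterol carrier, rose (0.71), as did the lysosomal exporter NPC1 (0.39) and the NPC1 regulator TMEM97 (0.52). Of the transcription factors, SREBF1, which leans towards fatty acid genes, was at 363 and 397 CPM with vehicle and 203 and 196 CPM with DProP (log2 fold change -0.93, SE 0.14, adjusted p = 0.00146). SREBF2 did not pass the test (-0.12, adjusted p = 0.159). The LXR and export list went down: 6 of 12 fell and the other 6 did not pass the test (median -0.23; 1 and 4 on library totals). ABCA1, the exporter that loads apolipoproteins, was at 986 and 871 CPM with vehicle and 589 and 543 CPM with DProP (log2 fold change -0.71, SE 0.07, adjusted p = 4.14e-05). ABCG1, its partner, was at 9.63 and 10.6 CPM with vehicle and 1.97 and 2.66 CPM with DProP (log2 fold change -2.12, SE 0.27, adjusted p = 0.000282). APOC1, a small apolipoprotein encoded beside APOE, was at 2.24 and 2.14 CPM with vehicle and 0.607 and 0.669 CPM with DProP (log2 fold change -1.77, SE 0.28, adjusted p = 0.000744). No DProP library reached the lower vehicle library at these exporters, which also held for 32.4% of all genes tested.

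**Figure D2:**
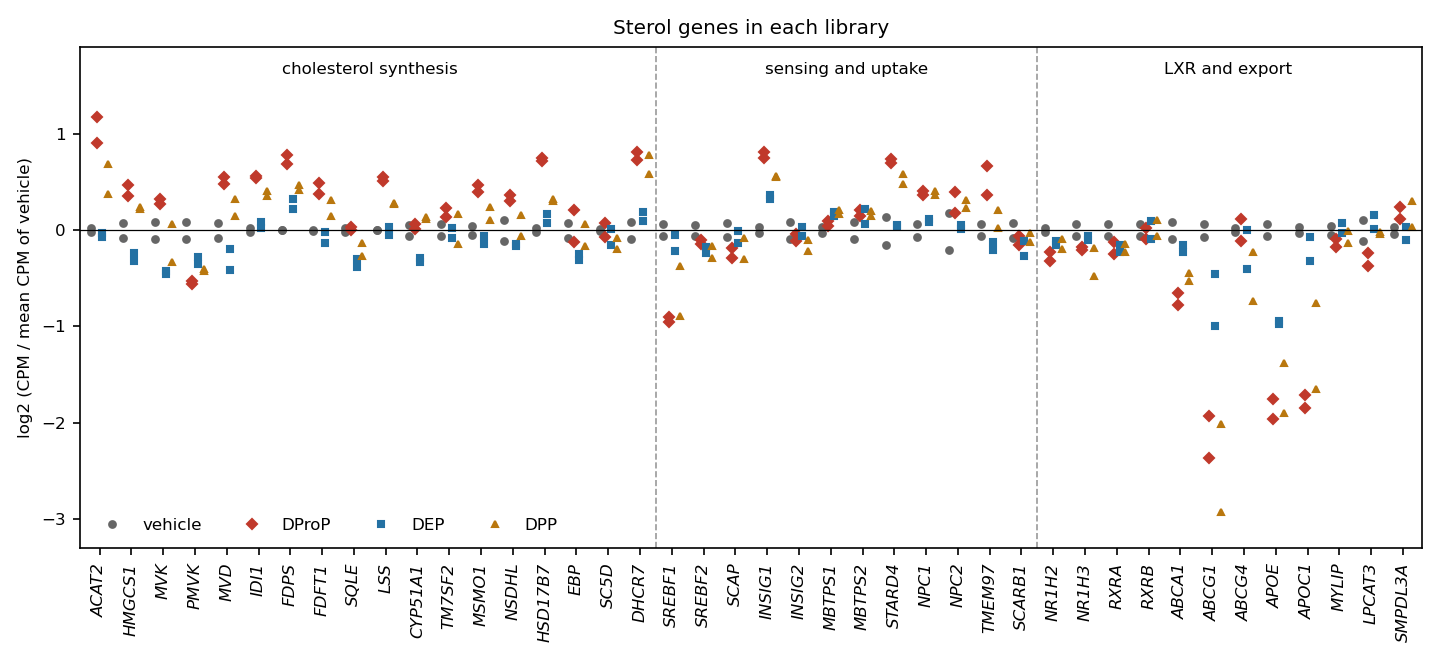
Expression of sterol genes in each library as log2 of CPM over the vehicle mean, for members with a vehicle mean of at least 1 CPM that are reported here: vehicle grey circles, DProP red diamonds, DEP blue squares, DPP orange triangles. The DProP points of HMGCS1, MVD and ACAT2 lie above 0 and above both DEP points, and those of ABCA1, ABCG1 and APOE lie below 0.

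Fatty acid genes split. Of 17 tested, 7 rose and 5 fell (median 0.13; 9 and 4 on library totals), and 4 rose when vehicle 1 or DProP 2 was left out. SCD, the main stearoyl-CoA desaturase and a target of SREBF1 and LXR, was at 1180 and 1340 CPM with vehicle and 745 and 797 CPM with DProP (log2 fold change -0.71, SE 0.08, adjusted p = 6.97e-05). Its relative SCD5, which is prominent in brain, was at 194 and 193 CPM with vehicle and 247 and 285 CPM with DProP (log2 fold change 0.46, SE 0.08, adjusted p = 0.00128), so the 2 desaturases moved in opposite directions. MID1IP1, an activator of acetyl-CoA carboxylase, fell (-0.74), as did FADS2 (-0.45) and ACACB (-0.43). ELOVL6 (0.55) and ACSS2 (0.45), which lengthen fatty acids and activate acetate, rose. PPAR targets and fatty acid oxidation genes, often studied with longer-chain phthalates, showed 1 higher and 7 lower of 25 (median -0.18; 3 and 3 on library totals), with 3 lower without vehicle 2 and 4 without DProP 1. CPT1C, the neuronal carnitine palmitoyltransferase relative, was at 77.8 and 81.5 CPM with vehicle and 44.7 and 46.3 CPM with DProP (log2 fold change -0.81, SE 0.07, adjusted p = 1.8e-05), and the acyl-CoA dehydrogenases ACADVL (-0.4) and ACADM (-0.4) fell. Among 20 genes of ester hydrolysis and xenobiotic handling, 1 rose and 6 fell (3 and 4 on library totals), with a median of 0 that became 0.17 when only library totals set the scale. The esterase-like lysosomal lipase LIPA (0.25) rose. The monooxygenase CYP1B1, a target of the aryl hydrocarbon receptor, was at 4.66 and 4.2 CPM with vehicle and 2.55 and 2.62 CPM with DProP (log2 fold change -0.78, SE 0.18, adjusted p = 0.00598), and GSTP1 (-0.4) and EPHX1 (-0.36) fell. The call of LIPA was lost without vehicle 1 or DProP 2 (highest adjusted p over the alternatives 0.119).

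Genes of nuclear hormone signalling were mostly lower where they differed: 2 of 27 rose and 11 fell (median -0.21; 5 and 8 on library totals). CRABP1, which binds retinoic acid in the cytosol, was at 182 and 198 CPM with vehicle and 68.4 and 68.6 CPM with DProP (log2 fold change -1.47, SE 0.2, adjusted p = 0.00166). CYP26B1, which degrades retinoic acid (-0.98), fell as well. Of the thyroid hormone genes, the receptor THRA was at 224 and 248 CPM with vehicle and 163 and 142 CPM with DProP (log2 fold change -0.63, SE 0.09, adjusted p = 0.000287), and the inactivating deiodinase DIO3 (-1.01) fell. Of 7 glucocorticoid target genes 4 fell and 1 rose, with log2 fold changes from -0.78 to 1.76. PER1 (-0.49), CRISPLD2 (-0.78) and KLF9 (-0.37) were among those that fell. The mineralocorticoid receptor NR3C2 (0.43) rose, but its call was not stable. The call of NR3C2 was lost without vehicle 1, vehicle 2, DProP 1 or DProP 2, with no filter, with limma-voom, with the replicate block and with the GC and length correction (highest adjusted p over the alternatives 0.222). The call of PER1 was lost with the GC and length correction (highest adjusted p over the alternatives 0.0531). Outside this list, HSD11B2, which inactivates cortisol, was among the largest decreases of all protein-coding genes, at 12.3 and 12.1 CPM with vehicle and 1.87 and 3.09 CPM with DProP (log2 fold change -2.29, SE 0.27, adjusted p = 0.000155).

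Progenitor genes were lower with DProP at 17 of 22 tested, 1 rose, and the median was -0.45. Against the same vehicle libraries the median of this list was -0.38 with DEP and -0.44 with DPP, and further lists are given with the other phthalates at the end. FABP7, a fatty acid carrier of radial glia, was at 351 and 298 CPM with vehicle and 132 and 163 CPM with DProP (log2 fold change -1.14, SE 0.12, adjusted p = 7.7e-05). VIM, the intermediate filament vimentin, was at 2700 and 2680 CPM with vehicle and 1330 and 1410 CPM with DProP (log2 fold change -0.98, SE 0.07, adjusted p = 4.45e-06). The SOX genes SOX9 (-0.5) and SOX21 (-0.45) fell, whereas the surface protein CD24 (0.33) rose. The call of CD24 was lost without vehicle 1 or DProP 1 (highest adjusted p over the alternatives 0.0816). The small list of growth-linked RNA regulators, with HMGA and IGF2BP genes among them, behaved otherwise: 4 of 6 tested rose (median 0.42), though fewer did so without any 1 of the 4 libraries. Its members LIN28A, LIN28B and IGF2BP1 did not pass the filter on low counts and were not tested. Proneural and neuronal transcription factors were lower at 16 of 29 and the other 13 did not pass (median -0.59; 3 and 15 on library totals). Of the 9 proneural factors 7 fell (median -1.38). NEUROG1, which starts sensory and cortical neurogenesis, was at 23 and 20.6 CPM with vehicle and 3.73 and 6.16 CPM with DProP (log2 fold change -2.13, SE 0.4, adjusted p = 0.00763). NEUROD1, its downstream partner, was at 14.1 and 11.8 CPM with vehicle and 5.38 and 4.26 CPM with DProP (log2 fold change -1.43, SE 0.16, adjusted p = 7.64e-05). INSM1, a zinc finger factor of newborn neurons, was at 54 and 57.5 CPM with vehicle and 20.8 and 22.2 CPM with DProP (log2 fold change -1.38, SE 0.13, adjusted p = 4e-05). The vehicle and DProP libraries did not overlap at any of these 3 genes. Of all genes tested, 32.4% likewise had both DProP libraries below both vehicle libraries. NEUROD2 (-1.84), NEUROD4 (-1.54), MYT1 (-1.24) and NEUROG2 (-0.59) fell too. Abundant factors of the neuronal lineage fell by smaller steps: SOX11 was at 1000 and 878 CPM with vehicle and 469 and 500 CPM with DProP (-0.95), SOX4 fell by 0.71 on the log2 scale, and the cortical POU factor POU3F2 by 0.77. EBF3, a factor of migrating neurons, was at 85.9 and 91.2 CPM with vehicle and 35.1 and 37.8 CPM with DProP (log2 fold change -1.28, SE 0.12, adjusted p = 4.55e-05).

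Neuronal structural genes followed, with 23 of 34 lower, 1 higher and a median of -0.58 (5 and 20 on library totals). TUBB2B, a tubulin of migrating neurons, was at 1430 and 1430 CPM with vehicle and 679 and 735 CPM with DProP (log2 fold change -1.02, SE 0.07, adjusted p = 4.16e-06). INA, the neurofilament internexin, was at 98.9 and 105 CPM with vehicle and 53.3 and 47.6 CPM with DProP (log2 fold change -1.02, SE 0.08, adjusted p = 1.06e-05). The adhesion molecules CNTN2 (-1.51) and L1CAM (-1.25) of growing axons and the microtubule regulators STMN2 (-1.22), STMN3 (-0.92) and DCX (-0.99) fell. The light neurofilament NEFL was the exception that rose, at 18.7 and 17.6 CPM with vehicle and 23.7 and 22.7 CPM with DProP (log2 fold change 0.35, SE 0.1, adjusted p = 0.0167). Of 43 synapse genes 4 rose and 14 fell (median -0.22; 10 and 10 on library totals). CPLX2, a complexin that clamps vesicle fusion, was at 51.8 and 55.6 CPM with vehicle and 14.9 and 21.4 CPM with DProP (log2 fold change -1.56, SE 0.16, adjusted p = 0.000117). SNAP25, a fusion SNARE, fell (-1.02), as did the vesicle protein SYT11 (-0.46). GRIN2D, an NMDA receptor subunit of immature neurons, was at 61.1 and 61.4 CPM with vehicle and 18.6 and 20.6 CPM with DProP (log2 fold change -1.64, SE 0.12, adjusted p = 8.74e-06). GAD1, which makes GABA, went up, at 43 and 41.5 CPM with vehicle and 60.7 and 71.8 CPM with DProP (log2 fold change 0.65, SE 0.09, adjusted p = 0.000245), as did VAMP1 (0.45) and HOMER1 (0.42). Of 45 ion channel genes 6 rose and 12 fell (12 and 5 on library totals), and their median of -0.18 became 0 with library totals as the scale. The accessory subunits KCNE5 (-1.73) and CACNG4 (-0.85) fell. The T-type calcium channel CACNA1G was at 0.908 and 1.49 CPM with vehicle and 3.58 and 2.99 CPM with DProP (log2 fold change 1.46, SE 0.27, adjusted p = 0.00193), and the inward rectifier KCNJ2 (0.53) rose. The call of NEFL was lost without vehicle 2 or DProP 1 (highest adjusted p over the alternatives 0.0963).

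Astrocyte genes were lower at 21 of 29, with 2 higher and a median of -0.49. CLU, a secreted chaperone of astrocytes, was at 3200 and 3240 CPM with vehicle and 1670 and 1650 CPM with DProP (log2 fold change -0.95, SE 0.06, adjusted p = 1.9e-06). GFAP, their intermediate filament, was at 4770 and 4550 CPM with vehicle and 2420 and 2380 CPM with DProP (log2 fold change -0.96, SE 0.08, adjusted p = 1.05e-05). TTYH1, a chloride channel protein of glia, was at 2160 and 2310 CPM with vehicle and 1090 and 1080 CPM with DProP (log2 fold change -1.04, SE 0.07, adjusted p = 4.16e-06). In each of the 3 the DProP libraries stood close together at roughly the same distance below vehicle. The glutamate transporter SLC1A3 and the factors NFIX and SOX8 fell by 0.72, 0.74 and 0.91 on the log2 scale. CD44, the hyaluronan receptor, was at 184 and 163 CPM with vehicle and 228 and 233 CPM with DProP (log2 fold change 0.41, SE 0.07, adjusted p = 0.000827), and glutamine synthetase GLUL (0.27) also rose. Of 14 oligodendrocyte lineage genes 2 fell and 12 did not pass. CNP, a phosphodiesterase of myelin-forming cells, was at 284 and 307 CPM with vehicle and 226 and 236 CPM with DProP (log2 fold change -0.35, SE 0.07, adjusted p = 0.00274), a call lost with library totals as the scale (adjusted p = 0.0617), while SOX10 was at 0 and OLIG2 (0.22) and PDGFRA (0.08) did not pass the test. Motile cilium genes were lower at 19 of 34, with 2 higher (median -0.58). FOXJ1, the master factor of motile cilia, was at 104 and 117 CPM with vehicle and 57 and 57 CPM with DProP (log2 fold change -0.95, SE 0.19, adjusted p = 0.00874). CFAP100, a dynein-associated protein of the axoneme, was at 9.99 and 8.75 CPM with vehicle and 1.35 and 1.78 CPM with DProP (log2 fold change -2.58, SE 0.24, adjusted p = 2.27e-05). CFAP157 (-1.28), DNAH11 (-0.87), CCDC40 (-0.65) and HYDIN (-0.43) fell, and the outer arm dynein DNAH5 (0.24) rose. The call of GLUL was lost without vehicle 1 or DProP 2 (highest adjusted p over the alternatives 0.131). That of FOXJ1 was lost without vehicle 2 or DProP 2 (highest adjusted p over the alternatives 0.0578). That of DNAH5 was lost without vehicle 1, vehicle 2, DProP 1 or DProP 2 and with the GC and length correction (highest adjusted p over the alternatives 0.287).

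Of 30 contractile and YAP-responsive genes 19 fell and 11 did not pass (median -0.45; 3 and 15 on library totals), with 13 lower among 17 contractile genes. TAGLN, the actin-binding transgelin, was at 21.2 and 20.6 CPM with vehicle and 4.51 and 4.21 CPM with DProP (log2 fold change -2.26, SE 0.13, adjusted p = 1.9e-06). MYL9, the regulatory light chain of nonmuscle and smooth muscle myosin, was at 25.5 and 22 CPM with vehicle and 2.62 and 3.51 CPM with DProP (log2 fold change -2.95, SE 0.28, adjusted p = 6.69e-05). ACTA2, the actin of smooth muscle, was at 63.6 and 57.9 CPM with vehicle and 17.1 and 19.3 CPM with DProP (log2 fold change -1.74, SE 0.13, adjusted p = 7.62e-06). CNN1 and ANKRD1 had no count in either DProP library, but their calls were lost without vehicle 1, vehicle 2, DProP 1 or DProP 2. That of CNN1 was also lost with a stricter filter and with protein-coding genes only, and that of ANKRD1 with DESeq2. The abundant nonmuscle forms MYL6 (-0.68) and MYH10 (-0.61) fell by less, and CNN2 (-0.58) fell, whereas MYLK and TPM4, which also carry a CArG box, did not pass the test (-0.03 and -0.01). The classical YAP targets CCN2 and CCN1 were at 199 and 188 CPM with vehicle and 74.6 and 83.3 CPM with DProP (log2 fold change -1.29, SE 0.1, adjusted p = 1.06e-05) and at 56.3 and 53.2 CPM with vehicle and 19.4 and 23.6 CPM with DProP (log2 fold change -1.35, SE 0.12, adjusted p = 1.8e-05). Transcripts of YAP1 and TEAD1 themselves did not pass (-0.09 and 0.11).

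Matrix genes were lower at 27 of 57, with 3 higher (median -0.29; 11 and 21 on library totals). NCAN, a brain chondroitin sulfate proteoglycan, was at 800 and 845 CPM with vehicle and 418 and 390 CPM with DProP (log2 fold change -1.03, SE 0.11, adjusted p = 8.58e-05). The tenascin TNR (-1.35), the collagen-binding SPARC (-0.77), AGRN (-0.61) and COL6A1 (-0.41) fell. The 3 that rose were the hyaluronan link protein HAPLN3 (1.08) and the collagens COL8A1 (0.64) and COL4A1 (0.31). The main tenascin TNC and fibronectin FN1 did not pass (-0.04 and 0.09). The call of HAPLN3 was lost without vehicle 1 or DProP 2 (highest adjusted p over the alternatives 0.058). That of COL8A1 was lost without vehicle 2, DProP 1 or DProP 2, with no filter and with the GC and length correction (highest adjusted p over the alternatives 0.129). Adhesion genes had about equal counts, 10 higher and 12 lower of 59 (17 and 7 on library totals), and their median of -0.06 became 0.11 with library totals as the scale. Without vehicle 2 or DProP 2, 5 were higher. ITGB8, the integrin beta chain that activates latent TGF-beta, was at 1000 and 838 CPM with vehicle and 538 and 524 CPM with DProP (log2 fold change -0.79, SE 0.08, adjusted p = 2.61e-05). The fibronectin receptor chain ITGA5 (0.83) and the laminin chain LAMC1 (0.38) rose. The protocadherins divided, with PCDH19 (0.57) and PCDH15 (0.53) higher and PCDH8 (-0.55) lower, and the planar polarity cadherin CELSR2 (-0.49) fell. Axon guidance genes were lower at 17 of 55 and higher at 5 (median -0.21; 8 and 12 on library totals). SEMA3F, a secreted repellent, was at 11.3 and 9.11 CPM with vehicle and 2.45 and 2.19 CPM with DProP (log2 fold change -2.14, SE 0.39, adjusted p = 0.00328). SLIT1, the abundant ligand of ROBO receptors, was at 663 and 708 CPM with vehicle and 370 and 450 CPM with DProP (log2 fold change -0.74, SE 0.1, adjusted p = 0.000298). Its relatives split, with SLIT3 (-1.36) lower and SLIT2 (0.71) higher. The receptors ROBO3 (-1.23), PLXND1 (-0.8) and PLXNB2 (-0.56) fell, while NRP1 (0.6) and EPHA7 (1.04) rose.

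Notch genes were lower at 12 of 28, with 2 higher (median -0.3; 6 and 7 on library totals). DLL3, a ligand of newborn neurons, was at 31.9 and 31.3 CPM with vehicle and 11.7 and 15.4 CPM with DProP (log2 fold change -1.22, SE 0.2, adjusted p = 0.00176). The receptors NOTCH1 (-0.42) and NOTCH3 (-0.48) and the modifying enzyme MFNG (-1.06) fell, whereas JAG2, another ligand, was at 4.19 and 4.36 CPM with vehicle and 8.15 and 7.28 CPM with DProP (log2 fold change 0.85, SE 0.2, adjusted p = 0.00721). BMP and TGF-beta genes showed 7 higher and 10 lower of 37 (11 and 5 on library totals), and 4 and 6 without DProP 1. Within the ID family, inhibitors of proneural factors and BMP targets, the members diverged. ID1 was at 0.689 and 1.21 CPM with vehicle and 4.74 and 5.19 CPM with DProP (log2 fold change 2.4, SE 0.28, adjusted p = 0.000117), and ID3 (1.61) also rose. ID4 was at 1090 and 952 CPM with vehicle and 503 and 487 CPM with DProP (log2 fold change -1.05, SE 0.07, adjusted p = 3.86e-06). GDF15, a stress-induced ligand, was at 2.08 and 1.46 CPM with vehicle and 9.04 and 8.25 CPM with DProP (log2 fold change 2.28, SE 0.23, adjusted p = 3.99e-05). TGFBR2, the receptor that binds TGF-beta, rose (0.9), and the antagonist NOG (-0.93) and latent binding protein LTBP3 (-0.65) fell. Of 38 Wnt genes 5 rose and 12 fell (median -0.21; 6 and 9 on library totals), with 3 higher without vehicle 2 or DProP 1. DKK1, a secreted Wnt inhibitor, was at 0.642 and 0.486 CPM with vehicle and 3.46 and 2.65 CPM with DProP (log2 fold change 2.42, SE 0.3, adjusted p = 0.000147), while DKK3 (-0.71) and SFRP4 (-0.84) fell. The receptors moved both ways, with FZD9 (-1), FZD2 (-0.89) and ROR2 (-1.89) lower and FZD8 (1.82) higher. The target gene CCND1, which encodes cyclin D1, was at 39.4 and 35.7 CPM with vehicle and 52.6 and 66.2 CPM with DProP (log2 fold change 0.66, SE 0.11, adjusted p = 0.00101). The call of FZD8 was lost without vehicle 2 or DProP 1 (highest adjusted p over the alternatives 0.0699). That of ROR2 was lost without vehicle 2 (highest adjusted p over the alternatives 0.0626).

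Of 34 genes of FGF and EGF signalling with their MAPK feedback, 7 rose and 5 fell (13 and 2 on library totals), with 4 higher and 3 lower without vehicle 1. The 7 that rose were among the 15 feedback genes, of which the other 8 did not pass (median 0.35). ETV5, an ETS factor induced by FGF signalling, was at 24.3 and 28.1 CPM with vehicle and 48.6 and 62.8 CPM with DProP (log2 fold change 1.09, SE 0.13, adjusted p = 0.00023). DUSP6, the phosphatase that removes the activating marks from ERK, was at 24.3 and 24.8 CPM with vehicle and 41.1 and 75.7 CPM with DProP (log2 fold change 1.25, SE 0.28, adjusted p = 0.0164), with DProP 2 well above DProP 1. DUSP4 (0.95), SPRY4 (0.69) and SPRED2 (0.4) rose as well. Among receptors and ligands, ERBB2 (-0.55) and FGF1 (-0.48) fell. The call of DUSP6 was lost without vehicle 1 or vehicle 2 and with the pair of groups fitted alone (highest adjusted p over the alternatives 0.114). Immediate early genes were divided, with 10 higher and 9 lower of 30 (13 and 5 on library totals). EGR1 was at 140 and 162 CPM with vehicle and 231 and 267 CPM with DProP (log2 fold change 0.72, SE 0.14, adjusted p = 0.00462). JUNB and FOSL1, subunits of AP-1, were at 12.3 and 10.7 CPM with vehicle and 24.5 and 27.5 CPM with DProP (log2 fold change 1.17, SE 0.14, adjusted p = 0.000145) and 1.63 and 2.11 CPM with vehicle and 4.72 and 5.01 CPM with DProP (log2 fold change 1.39, SE 0.19, adjusted p = 0.000261). FOS (0.73), FOSB (1.71) and ARC (1.49) rose, and NR4A1 (-0.84), JUND (-0.48) and SRF (-0.38) fell. The call of JUND was lost with the GC and length correction (highest adjusted p over the alternatives 0.0713). That of SRF was lost with the GC and length correction (highest adjusted p over the alternatives 0.0528). Among 27 cytokine and innate genes 7 rose and 4 fell (10 and 1 on library totals), with 3 higher without vehicle 2 or DProP 2. SOCS1, a feedback inhibitor of JAK kinases, was at 0.626 and 0.9 CPM with vehicle and 3.46 and 3.46 CPM with DProP (log2 fold change 2.18, SE 0.27, adjusted p = 0.000158). The chemokine CXCL12 (0.6) and the receptor chain OSMR (0.44) rose, and the complement inhibitor SERPING1 (-1.2) fell. Of 16 genes of the insulin-like growth factor system 2 rose and 4 fell (2 and 3 on library totals), and the 4 were among 11 binding proteins (median -0.49). IGFBP4 was at 14.2 and 18.9 CPM with vehicle and 6.21 and 5.22 CPM with DProP (log2 fold change -1.53, SE 0.15, adjusted p = 2.6e-05). IGFBPL1 (-1.14) and IGFBP7 (-0.49) fell, and the scavenging receptor IGF2R (0.32) rose.

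Stress genes gave moderate changes. Of 24 genes of the ATF4 response 7 rose and 2 fell (median 0.17; 14 and 2 on library totals), with 4 higher without vehicle 1, vehicle 2 or DProP 1. ASNS, asparagine synthetase, was at 9.99 and 9.96 CPM with vehicle and 18.2 and 18.2 CPM with DProP (log2 fold change 0.87, SE 0.09, adjusted p = 3.79e-05). MTHFD2, a mitochondrial folate enzyme, was at 11.3 and 11.6 CPM with vehicle and 25.5 and 24.8 CPM with DProP (log2 fold change 1.14, SE 0.12, adjusted p = 3.73e-05). DDIT3, the stress factor CHOP, was at 4.59 and 4.39 CPM with vehicle and 8.25 and 6.45 CPM with DProP (log2 fold change 0.71, SE 0.15, adjusted p = 0.00422). The transcript of ATF4 itself was lower, at 265 and 272 CPM with vehicle and 194 and 195 CPM with DProP (log2 fold change -0.47, SE 0.06, adjusted p = 0.00013), and PHGDH, the first enzyme of serine synthesis, fell (-0.69). Of 20 genes of the NFE2L2 list 8 rose and 3 fell (14 and 1 on library totals), with 4 higher without DProP 1. Its 15 targets held 7 of the higher and the 3 lower, and its 5 regulators the other 1. HMOX1, haem oxygenase, was at 38.5 and 44.5 CPM with vehicle and 61 and 54.5 CPM with DProP (log2 fold change 0.48, SE 0.12, adjusted p = 0.0101), and SRXN1, which repairs peroxiredoxins, was at 29.2 and 33.7 CPM with vehicle and 48.9 and 46.8 CPM with DProP (log2 fold change 0.61, SE 0.09, adjusted p = 0.000392). TXN (0.33) and TXNRD1 (0.26) rose by less, and TALDO1 (-0.54) fell. The call of HMOX1 was lost without vehicle 1 or DProP 1 (highest adjusted p over the alternatives 0.079). Of 30 p53 and apoptosis genes 10 rose and 3 fell (16 and 0 on library totals), with 6 higher without vehicle 2 or DProP 2. Among them were 16 p53 targets, of which 5 rose and 3 fell, and 14 BCL2 family and caspase genes, of which 5 rose and the other 9 did not pass. CDKN1A, the inhibitor p21, was at 111 and 112 CPM with vehicle and 151 and 149 CPM with DProP (log2 fold change 0.43, SE 0.06, adjusted p = 0.000289), and FAS (0.5), SESN1 (0.47) and TNFRSF10B (0.42) rose. Hypoxia and glycolysis genes showed 11 higher and 8 lower of 29 (16 and 3 on library totals), with 5 lower without vehicle 2 or DProP 1. HK2, the inducible hexokinase, was at 18.2 and 20.4 CPM with vehicle and 47.2 and 45.7 CPM with DProP (log2 fold change 1.27, SE 0.1, adjusted p = 8.12e-06). LDHA, lactate dehydrogenase, was at 27.3 and 26.6 CPM with vehicle and 48.9 and 56.5 CPM with DProP (log2 fold change 0.97, SE 0.11, adjusted p = 7.22e-05), and the peptide hormone ADM (1.59) rose. The abundant PFKFB3, ALDOC (-0.69) and GAPDH (-0.45) fell, PFKFB3 by 0.54 on the log2 scale. Of 18 metal handling genes 2 rose and 3 fell (median -0.01; 6 and 2 on library totals). Among its iron genes, TFRC, the transferrin receptor, was at 129 and 126 CPM with vehicle and 228 and 251 CPM with DProP (log2 fold change 0.91, SE 0.08, adjusted p = 1.55e-05). FTH1, heavy ferritin, was at 826 and 924 CPM with vehicle and 449 and 393 CPM with DProP (log2 fold change -1.06, SE 0.1, adjusted p = 2.57e-05). FTL (-0.4) fell with it. Chaperones were lower at 13 of 31 and the other 18 did not pass (5 and 8 on library totals), but their median of -0.15 became 0.03 with library totals as the scale. HSPA8 (-0.68), CANX (-0.66), CALR (-0.53) and HSP90AA1 (-0.47) fell.

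Cell cycle genes were higher at 20 of 50 and lower at 3 (median 0.69; 34 and 1 on library totals), and the increase was larger in 1 of the DProP libraries. The median log2 ratio to the vehicle mean was 0.16 in DProP 1 and 0.95 in DProP 2. Without DProP 2, 6 genes were higher and the median was 0.15. Without DProP 1, 39 were higher, and without vehicle 1 or vehicle 2, 8 and 6. MCM10, which helps to start replication forks, was at 2.5 and 2.34 CPM with vehicle and 4.07 and 9.99 CPM with DProP (log2 fold change 1.54, SE 0.35, adjusted p = 0.0086). BUB1B, a spindle checkpoint kinase, was at 4.55 and 4.52 CPM with vehicle and 7.26 and 16.6 CPM with DProP (log2 fold change 1.4, SE 0.32, adjusted p = 0.0104). CDK1, the mitotic kinase, was at 6.89 and 6.14 CPM with vehicle and 7.88 and 17.7 CPM with DProP (log2 fold change 0.98, SE 0.31, adjusted p = 0.0453). In all 3 the DProP 1 value was nearer to vehicle than to DProP 2. The call of MCM10 was lost without vehicle 1 or vehicle 2 and with the pair of groups fitted alone (highest adjusted p over the alternatives 0.0728). That of BUB1B was lost without vehicle 1 or vehicle 2 and with the pair of groups fitted alone (highest adjusted p over the alternatives 0.0992). That of CDK1 was lost without vehicle 1, vehicle 2 or DProP 2, with no filter, with a stricter filter, with the pair of groups fitted alone, with the GC and length correction and with protein-coding genes only (highest adjusted p over the alternatives 0.263). The inhibitor CDKN1C (-0.74) fell. Of 46 list genes with a vehicle mean high enough to plot, 42 (91.3%) were higher in DProP 2 than in DProP 1, against 47 of 84 (56%) of proneural, neuronal structure and astrocyte genes. Replication-dependent histone genes, which near-identical copies make hard to count apart, were among the largest increases and shared the pattern. H3C8 was at 0.986 and 0.991 CPM with vehicle and 2.01 and 8.96 CPM with DProP (log2 fold change 2.48, SE 0.63, adjusted p = 0.0228) and H3C2 at 3.26 and 3.44 CPM with vehicle and 6.45 and 20 CPM with DProP (log2 fold change 1.99, SE 0.47, adjusted p = 0.0189), and H2AC11 (1.83) and H1-5 (1.74) rose as well. The call of H3C8 was lost without vehicle 1 or vehicle 2, with no filter and with the pair of groups fitted alone (highest adjusted p over the alternatives 0.158). That of H3C2 was lost without vehicle 1 or vehicle 2 and with the pair of groups fitted alone (highest adjusted p over the alternatives 0.16). That of H1-5 was lost with the pair of groups fitted alone (highest adjusted p over the alternatives 0.059).

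**Figure D3:**
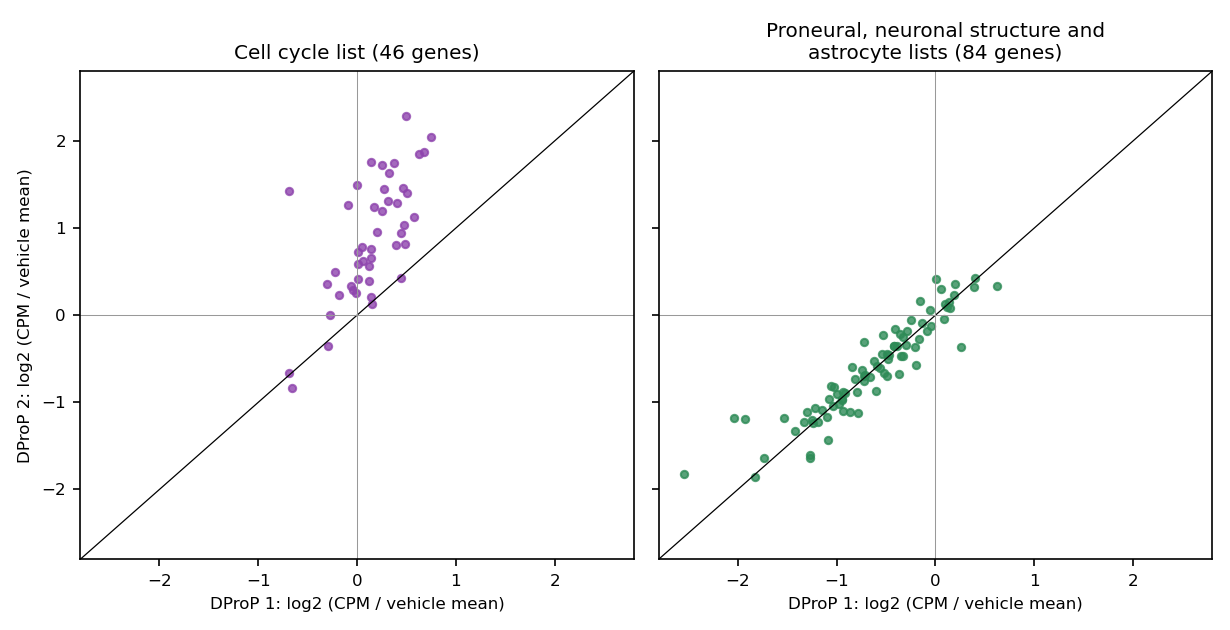
Log2 of CPM over the vehicle mean in DProP 1 (horizontal) against DProP 2 (vertical), 1 point per gene, for the cell cycle list and for the proneural, neuronal structure and astrocyte lists. Points above the diagonal are higher in DProP 2: 42 of 46 cell cycle genes against 47 of 84 genes of the other lists.

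The largest changes among protein-coding genes, outside the groups above, were of mixed kinds. Among the increases SPP1, the secreted phosphoprotein osteopontin, was at 19.4 and 16 CPM with vehicle and 55.6 and 71.4 CPM with DProP (log2 fold change 1.84, SE 0.16, adjusted p = 7.7e-05). RGS4, which shortens G protein signals, was at 4.8 and 3.71 CPM with vehicle and 13.3 and 16.9 CPM with DProP (log2 fold change 1.82, SE 0.17, adjusted p = 3.02e-05). The nicotinic receptor subunit CHRNA9 was at 2.36 and 1.98 CPM with vehicle and 6.36 and 9.36 CPM with DProP (log2 fold change 1.85, SE 0.22, adjusted p = 0.000122). ND6 and ATP8, encoded by the mitochondrial genome, rose by 1.86 and 1.75 on the log2 scale, beside the higher mitochondrial share given above. Among the decreases, CLDN5, a tight junction protein, was at 42.3 and 46.4 CPM with vehicle and 10.3 and 11.7 CPM with DProP (log2 fold change -2.01, SE 0.31, adjusted p = 0.00321), although PECAM1 had no count. SLC4A11, a membrane transporter of the bicarbonate transporter family, was at 64 and 65.3 CPM with vehicle and 12.2 and 20.7 CPM with DProP (log2 fold change -1.97, SE 0.27, adjusted p = 0.00168). JPH2, which ties plasma membrane to sarcoplasmic reticulum in muscle, was at 6.79 and 7.33 CPM with vehicle and 1.47 and 1.63 CPM with DProP (log2 fold change -2.19, SE 0.29, adjusted p = 0.000252). PODN (-2.02), RRAD (-2.01) and EFCAB1 (-1.99) fell. FLG, filaggrin, was at 120 and 69.4 CPM with vehicle and 13.1 and 24.4 CPM with DProP (log2 fold change -2.33, SE 0.39, adjusted p = 0.00767), a call lost when DProP and vehicle were fitted alone. Among noncoding genes the largest increases were LOC107987081 (2.45), LINC01004 (2.32), LINC00472 (2.24) and LINC00641 (2.12), and TUG1, listed as protein-coding, was at 2.72 and 3.78 CPM with vehicle and 11.1 and 10.6 CPM with DProP (log2 fold change 1.74, SE 0.15, adjusted p = 1.21e-05). The largest decreases were PDCD6-AHRR (-2.97), SNORD33 (-2.49), EEF1A1P4 (-2.29) and UBBP4 (-2.16), of which SNORD33, a box C/D small nucleolar RNA within a ribosomal protein gene, was at 52.4 and 62.7 CPM with vehicle and 8.37 and 12.1 CPM with DProP. The call of PDCD6-AHRR, a readthrough gene at 6.2 and 16.3 CPM with vehicle and 2.13 and 0.792 CPM with DProP, was lost without DProP 2 and with the pair of groups fitted alone. Pseudogenes such as EEF1A1P4 and UBBP4 may share reads with their parent genes.

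DProP was then set beside the other single phthalates at the same labelled dose and time, in contrasts that use no vehicle library. With 2 pairs of compounds compared, p-values of each pair were adjusted over all 19465 genes. Against DEP, 76 genes (0.39%) were higher and 26 (0.134%) lower with DProP, and against DPP 23 (0.118%) were higher and 28 (0.144%) lower. Measured from the shared vehicle libraries, median log2 fold changes with DEP and DPP were -0.44 and -0.6 for neuronal structure. They were -0.38 and -0.48 for astrocyte genes, -0.57 and -0.55 for contractile and YAP genes and -0.37 and -0.45 for matrix. For cholesterol synthesis they were -0.07 and 0.23, and for cell cycle genes 0.01 and 0.4. DPP is left without a structure, since its short form fits more than 1 ester. Any part of the ester chain in the differences between DProP and DEP was not tested. The 2 compounds differed in cholesterol synthesis: 15 of 20 genes were higher with DProP than with DEP and the other 5 did not pass (median log2 difference 0.52). This count was 7 without DEP 1, 4 without DEP 2, 14 without DProP 1 and 9 without DProP 2. ACAT2 was at 64.2 and 77.8 CPM with DProP and 32.8 and 33.6 CPM with DEP (log2 difference 1.1, SE 0.11, adjusted p = 0.00109, 95% interval 0.86 to 1.33), and the groups did not overlap. MVD was at 66.2 and 62.7 CPM with DProP and 39.4 and 33.9 CPM with DEP (log2 difference 0.81, SE 0.09, adjusted p = 0.00217), and HMGCS1 at 507 and 547 CPM with DProP and 336 and 316 CPM with DEP (log2 difference 0.69, SE 0.07, adjusted p = 0.00117). The calls of MVD, HMGCS1 and IDI1 were lost without DEP 2. SQLE, which did not pass against vehicle, was at 159 and 156 CPM with DProP and 119 and 126 CPM with DEP (log2 difference 0.36, SE 0.06, adjusted p = 0.0246). The call of SQLE was lost without DEP 1, DEP 2, DProP 1 or DProP 2 (highest adjusted p over the alternatives 0.261). The exporter ABCA1 was lower with DProP, at 589 and 543 CPM with DProP and 833 and 794 CPM with DEP (log2 difference -0.52, SE 0.07, adjusted p = 0.00927). The call of ABCA1 was lost without DEP 1, DEP 2 or DProP 2 (highest adjusted p over the alternatives 0.169).

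Beyond sterols, 4 of 24 ATF4 response genes were higher with DProP than with DEP, but leaving out single libraries gave 0 to 1: the calls went without either DEP library or DProP 2. MTHFD2 was at 25.5 and 24.8 CPM with DProP and 14.6 and 14.9 CPM with DEP (log2 difference 0.77, SE 0.11, adjusted p = 0.0132, 95% interval 0.52 to 1.02), and ASNS at 18.2 and 18.2 CPM with DProP and 13.4 and 13 CPM with DEP (log2 difference 0.47, SE 0.09, adjusted p = 0.0386). HK2 was at 47.2 and 45.7 CPM with DProP and 29.6 and 29.1 CPM with DEP (log2 difference 0.66, SE 0.1, adjusted p = 0.0124). Cell cycle genes had a median log2 difference of 0.7 from DEP, with 1 of 50 called higher and 0 lower. Their medians from the vehicle mean, given above, were 0.16 in DProP 1 and 0.95 in DProP 2. Of neuronal genes, the RNA-binding ELAVL3 was lower with DProP, at 21.9 and 23.5 CPM with DProP and 37 and 38.4 CPM with DEP (log2 difference -0.73, SE 0.13, adjusted p = 0.0386). The call of MTHFD2 was lost without DEP 1, DEP 2 or DProP 2 (highest adjusted p over the alternatives 0.224). That of ASNS was lost without DEP 1, DEP 2, DProP 1 or DProP 2 and with the replicate block (highest adjusted p over the alternatives 0.34). That of HK2 was lost without DEP 1, DEP 2 or DProP 2 (highest adjusted p over the alternatives 0.232). That of ELAVL3 was lost without DEP 1, DEP 2, DProP 1 or DProP 2 and with the replicate block (highest adjusted p over the alternatives 0.287).

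Against DPP, few sterol genes passed the test, though the sterol list leaned towards DProP. Of the 20 cholesterol synthesis genes 1 was called higher with DProP, HSD17B7 (log2 difference 0.42, SE 0.08, adjusted p = 0.0497). The call of HSD17B7 was lost without DPP 1, DPP 2, DProP 1 or DProP 2, with the pair of groups fitted alone and with the replicate block (highest adjusted p over the alternatives 0.229). The median log2 difference of these 20 genes was 0.2, and it was above 0 in all 15 alternatives. Among genes not called, the 95% interval, unadjusted for the number of genes, was 0.28 to 0.74 for ACAT2 and 0.03 to 0.34 for HMGCS1. For PMVK it was -0.3 to 0.04. DHCR7 differed by 0.08 (95% interval -0.1 to 0.25). MTHFD2 differed by -0.08 (95% interval -0.32 to 0.16). Among the 28 genes lower with DProP than with DPP, HBEGF, a ligand of the EGF receptor, was at 6.04 and 5.77 CPM with DProP and 18 and 16.6 CPM with DPP (log2 difference -1.55, SE 0.14, adjusted p = 0.00209), while DProP and vehicle did not separate at it (log2 fold change 0.21, adjusted p = 0.295). EGR2, an early response factor, was at 7.37 and 8.13 CPM with DProP and 16.4 and 19.5 CPM with DPP (log2 difference -1.21, SE 0.15, adjusted p = 0.00897). HMGA2, a chromatin protein of growing cells, was at 1.23 and 1.13 CPM with DProP and 3.66 and 5.91 CPM with DPP (log2 difference -2.01, SE 0.25, adjusted p = 0.00897). The call of EGR2 was lost without DPP 2 (highest adjusted p over the alternatives 0.0834). That of HMGA2 was lost without DPP 2 or DProP 2 and with the pair of groups fitted alone (highest adjusted p over the alternatives 0.086). Of 15 NFE2L2 targets 4 were lower with DProP than with DPP, HMOX1 among them at 61 and 54.5 CPM with DProP and 82.7 and 105 CPM with DPP (log2 difference -0.7, SE 0.11, adjusted p = 0.0357). The count was 1 without DProP 1, and the 4 calls were lost without DPP 2 or DProP 2.

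Above both DEP and DPP stood 3 genes (0.0154%), GAD1, HSD17B7 and TNNI3K, and below both 3 (0.0154%), FPGT-TNNI3K, MT1X and TNFAIP8L2. GAD1 was at 60.7 and 71.8 CPM with DProP, 36.2 and 41.1 CPM with DEP and 40.2 and 41.6 CPM with DPP (log2 difference 0.78, SE 0.09, adjusted p = 0.00217 against DEP, and log2 difference 0.7, SE 0.09, adjusted p = 0.00897 against DPP). The DProP libraries lay above all 4 others. Its call against DEP was lost without DEP 1, and that against DPP without DPP 2 or DProP 2 and with the pair of groups fitted alone (highest adjusted p = 0.0805). MT1X, a metallothionein, was at 17.4 and 15.9 CPM with DProP, 27.1 and 26.4 CPM with DEP and 30 and 31.7 CPM with DPP (log2 difference -0.68, SE 0.12, adjusted p = 0.0258 against DEP, and log2 difference -0.89, SE 0.12, adjusted p = 0.0105 against DPP). The call of MT1X was lost without DEP 1, DEP 2 or DProP 2 (highest adjusted p over the alternatives 0.251). Against DPP it was lost without DPP 2 or DProP 2. Compared with vehicle, MT1X was called higher with DProP, a call lost without vehicle 1 or DProP 1. TNNI3K, a kinase gene, and the readthrough FPGT-TNNI3K overlap on chromosome 1 (74235387 to 74544428 and 74198242 to 74544428). TNNI3K was at 3 and 2.95 CPM with DProP and at 0 to 0.0707 CPM in the other libraries. FPGT-TNNI3K was at 0.523 and 0.683 CPM with DProP and at 2.38 to 3.91 CPM elsewhere. How reads were shared out between these overlapping gene models is not known here, so both values are uncertain. TNFAIP8L2 is listed at 0 with DProP and with vehicle.

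**Figure D4:**
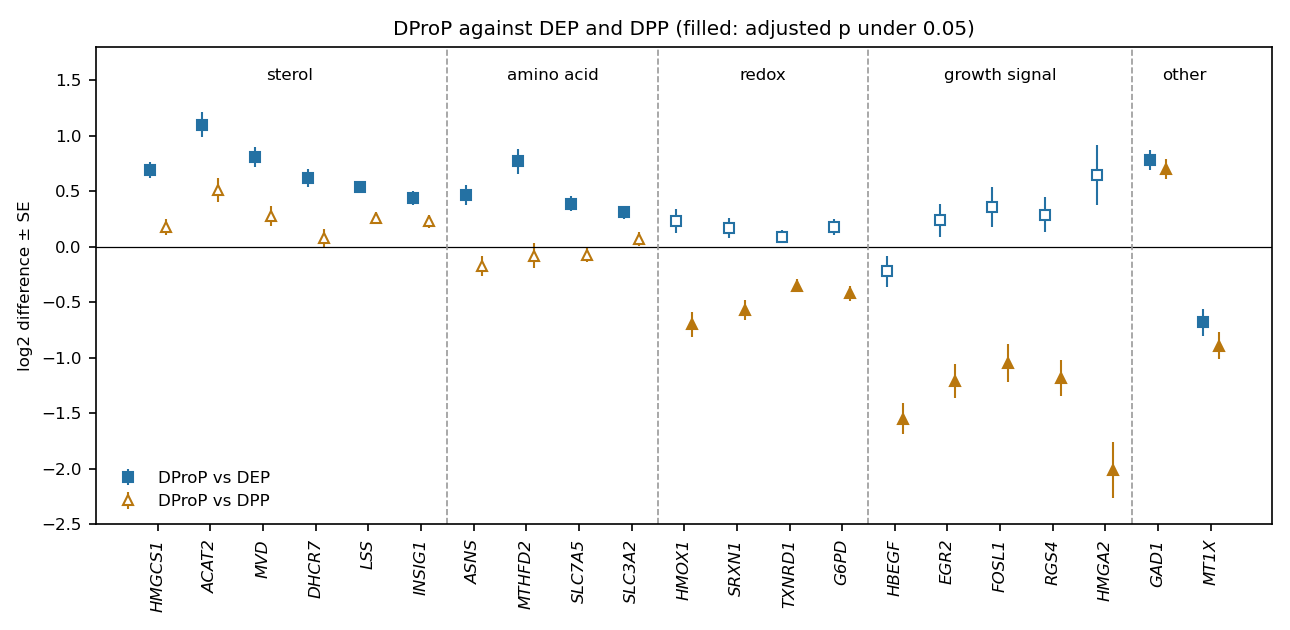
Log2 difference of DProP from DEP and from DPP (points, with SE as bars) for sterol, ATF4 response, NFE2L2, growth signal and other genes, chosen after their values were seen. Filled points passed an adjusted p of 0.05: the sterol genes stand above 0 against DEP, and HBEGF, EGR2, RGS4 and HMGA2 stand below 0 against DPP.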

How the data were processed

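RNA from pooled ReNcell VM neurospheres was captured with an exome RNA kit and sequenced, per the labels' protocols. The deposited table holds the authors' raw read counts per NCBI gene ID. Per the submitters' processing notes, the tools were R 4.3.2 with edgeR 4.0.9, StringTie 2.1.3b, HISAT2 2.1.0, Trimmomatic 0.38 and FastQC, on GRCh38. Their roles, the annotation release and the handling of strand and multiply mapped reads are not given in those notes, so overlapping, antisense and near-identical genes are uncertain.

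From these counts, edgeR 4.0.16 in R 4.3.3 was run on all 10 libraries with 1 mean per group, filterByExpr by group, TMM factors and the robust quasi-likelihood test, with Benjamini-Hochberg adjustment over 19465 genes and a threshold of 0.05. Every adjusted p is from this fit, except where the text names an alternative beside it. The script was tested on simulated data. Gene IDs were matched to names for 44698 genes. SE is the log2 fold change over the root of its F statistic. Groups were taken from the labels. The coefficient of biological variation came to 9.4%. The median half-width of a 95% interval was 0.263 on the log2 scale. Counts measure sampled reads, so low genes carry more error.

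Alternatives were other scalings and filters, limma-voom (limma 3.58.1), DESeq2 1.42.0, the groups compared fitted alone, a replicate block, a fold minimum of 2 and leaving out each library. A GC and length correction (lowess span 0.3) and a fit of protein-coding genes only were added after the data were seen. Same-numbered libraries did not deviate together: over 10 pairs of groups the correlations of deviations from the group means ran from -0.0465 to 0.0471.

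Named genes are the 14 largest changes in each direction among protein-coding genes, and 4 among others, with a mean of at least 2 CPM, a passed test and groups that did not overlap, and up to 6 members of each list with the smallest p. The members and lists were chosen with earlier results of these data known. Other genes named were chosen after their values were seen. Mix was used for the spread only. Some genes are not reported here, though they count in the lists.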

Additional observations from a re-analysis of the deposited data

How the results depend on the processing

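No called gene changed sign in the named set under the alternatives run. Library totals as the scale did turn the balance of calls, for all genes and for several lists, whose counts and medians are given beside them. Against vehicle, library totals as the scale gave 5850 genes higher and 1699 lower with DProP, and a 2-fold minimum 976 and 409. Leaving out single libraries gave 1643 to 2073 higher and 2333 to 2925 lower. The other counts stayed within 1.5 times of 2864 and 3402, but the genes called were not all the same. With the GC and length correction 2769 were higher and 2873 lower, of which 2373 and 2373 were among the main calls. List medians of Notch, matrix and axon guidance went from -0.3, -0.29 and -0.21 to -0.11, -0.15 and -0.1. Those of neuronal structure and astrocyte genes went from -0.58 and -0.49 to -0.57 and -0.5. Against DEP (76 higher, 26 lower), a stricter filter gave 169 and 110, DESeq2 332 and 280, the groups alone 232 and 257, a 2-fold minimum 12 and 4, and protein-coding genes only 153 and 109. A GC and length correction gave 53 lower. Leaving out single libraries gave 8 (without DEP 2) to 243 (without DProP 1) higher and 1 to 24 lower. Against DPP (23 higher, 28 lower), library totals gave 36 higher, no filter 37, limma-voom 11 and the GC and length correction 39. A stricter filter gave 85 higher and 61 lower, DESeq2 214 and 185, the groups alone 4 and 13, a 2-fold minimum 11 and 12, and protein-coding genes only 80 and 63. Leaving out single libraries gave 1 (without DPP 2) to 94 (without DPP 1) higher and 4 to 38 lower. The cause was not tested. The numbers do not pair the libraries. With the replicate block, counts were 2693 higher and 3284 lower against vehicle, 74 and 18 against DEP, and 13 and 23 against DPP. With 2 libraries a group, small differences at low genes were not detectable.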

Other observations

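Of 13 genes often used as expression references, 3 were higher and 5 lower with DProP than with vehicle. Their median log2 fold change of -0.18 became 0 with library totals as the scale. Without DProP 2, 1 was higher and 6 were lower, and the other single libraries, when left out, gave 2 higher and 5 lower.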
